A study of Ambystoma mexicanum with 8 samples.

Results

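Myosin is the motor of the muscle fibre, and the transcripts described here are those of its heavy and light chains in axolotl limb stumps. They are the 32 entries of the study's list of differentially expressed transcripts (912 entries) whose protein name begins with MYH, MYSS, MYL, MLR or MLE. Each entry was matched to the assembled transcript, or contig, whose group means of FPKM (a level per length, as fragments for each kilobase and each 1000000 mapped fragments), with 1 added, equalled the listed means within 1e-06. All 32 matched a single contig among the 91843 in the tables, and no other contig came within 0.00025 FPKM of a member. Of the 32, 26 were named for heavy chains and 4 for light chains. The remaining 2 were named for MYLK2, the skeletal muscle kinase that phosphorylates the regulatory light chain, an enzyme and not a chain, which was caught by the letters MYL.

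RNA was sequenced from the limb stumps of 8 leucistic, wild-type axolotls, each sample from a separate animal. The repeatedly amputated group (libraries MR14, MR2, MR5 and MR6) held forelimbs that had failed to regenerate over 5 earlier rounds of amputation and were then cut a 6th time, slightly proximal to the old plane. The control group (libraries Control1, Control3, Control4 and Control6) held limbs of siblings with no earlier injury, amputated once at the same anatomical position. In both groups the tissue just proximal to the cut was taken at 3 days post-amputation, and the age at sampling is not given in the sources used here. The repeatedly amputated limbs were therefore picked as failed regenerates. Their 6th cut removed the old amputation plane, so the sampled tissue lay just proximal to a plane that control limbs never had. Column names in the deposited tables show to which group a library belongs and do not identify the animal.

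In each myosin molecule a pair of heavy chains carries the ATP-splitting heads and the rod that packs into the thick filament. Each head is held by an essential and a regulatory light chain. Vertebrate muscles express different heavy chain genes in fast fibres, in slow fibres and during development or regeneration of muscle, and the mix sets how fast a fibre shortens. In the axolotl limb, muscle lies around the skeleton and is cut through by an amputation, and muscle fibres next to the cut normally break down early in regeneration.

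Names rest on the best protein match of each contig in other species, so a type name describes that match and not a measured property of an axolotl fibre. By name, 5 heavy chain contigs were fast (MYH4_PIG, MYH4_HUMAN, MYH2_BOVIN and 2 named MYSS_CYPCA, the fast chain of carp). A further contig, MYSS_RABIT, was skeletal without a stated type, 1 was embryonic (MYH3_MOUSE) and 1 perinatal (MYH8_RAT). The others were 6 slow (MYH7, the chain of slow fibres and of the ventricle), 8 alpha cardiac (MYH6) and 4 slow tonic (MYH7B). The light chains were the regulatory MLRV_HUMAN and MLRB_CHICK and the essential MLEC_CHICK and MYL4_HUMAN. Of the 26 heavy chain contigs, 23 came from the assembly component TR5549, a set of 30 contigs that share stretches of sequence. They are pieces of an unknown number of genes, and RSEM divides the fragments they share, so they are not independent readings. Only MYH4_PIG, with an effective length of 5875 bases estimated from its counts and FPKM, was much longer than the rest, which ranged down to 102 bases. The light chain contigs were each the only contig of their component.

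Summed counts per library lay between 15596527 and 18437103. The tissue label fitted mixed limb tissue, since the listed markers of skeletal muscle, cartilage, epidermis and B cells all had counts. Before any result, the libraries have to be told apart. MR5 and MR14 held most of the myosin, and Control4 held far more than the other controls. Summed over the heavy chains, MR6 held far less than the other repeatedly amputated limbs. For the summed light chains MR2 was nearer to MR6, and for MLRV_HUMAN and MYL4_HUMAN MR2 was below MR6. MR5 was the highest of the 8 libraries for 28 of the 32 members, and 4 were highest in MR14. Control4 was the highest control for 21 members, and MR6 was the lowest repeatedly amputated library for 25. Over the 32757 contigs with enough counts to be tested, MR5 was highest for 9.36%, Control4 was the highest control for 16% and MR6 the lowest repeatedly amputated library for 24.6%. These shares are descriptions, because the study chose the members on the same comparison.

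**Figure D1:**
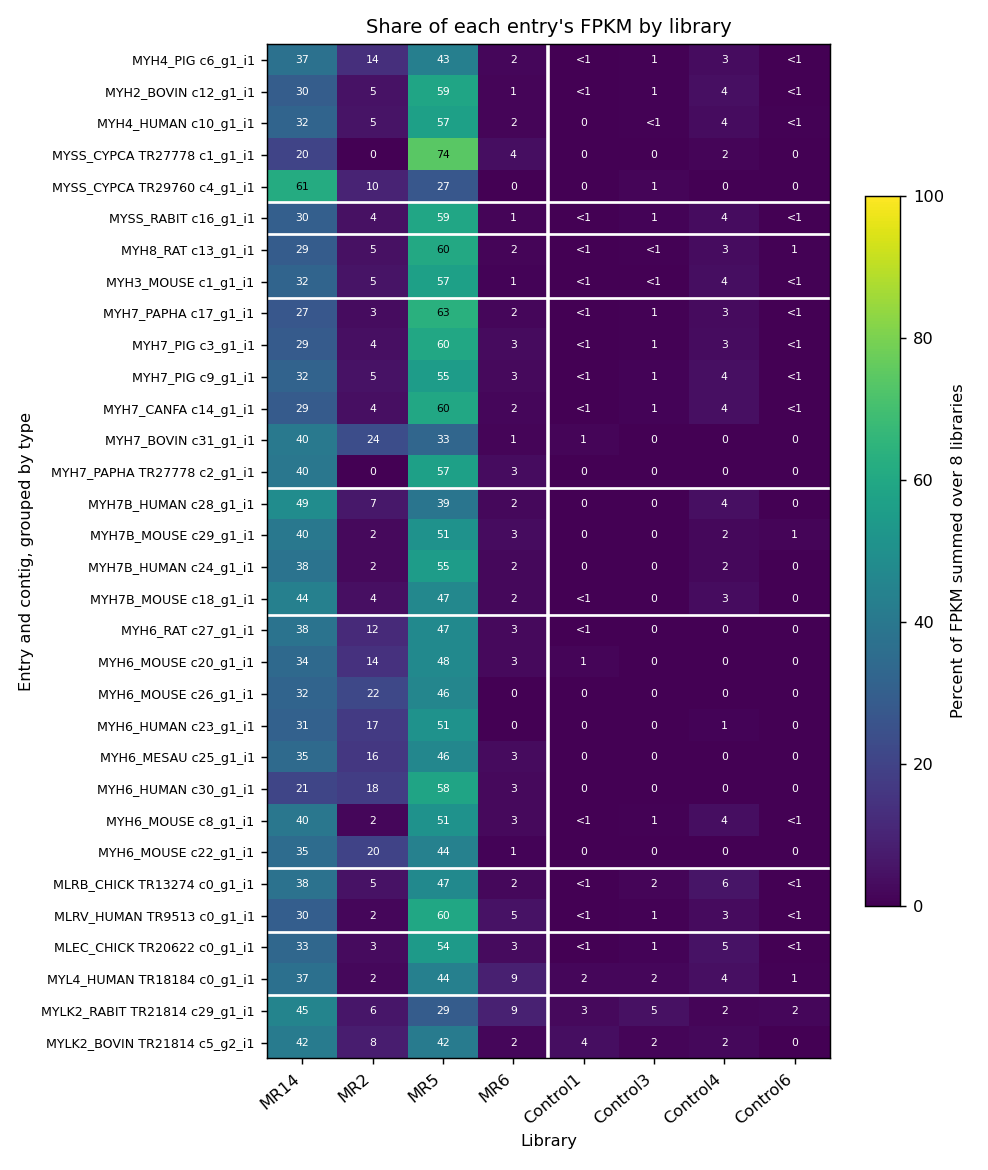
Percent of each member's FPKM, summed over the 8 libraries, that fell in each library (columns, repeatedly amputated libraries left of the white line and control libraries right of it), with the 32 members grouped by type as rows. For nearly every member the MR14 and MR5 columns hold most of the FPKM, Control4 holds the largest control share for 21 members, and MR2 holds more of MYH4_PIG and of the small MYH6 pieces than of other tested heavy chains.

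Summed over all 26 contigs, heavy chain transcripts took up 2502, 802, 3270 and 115 counts per 1000000 (CPM) in MR14, MR2, MR5 and MR6, against 7.05, 49.1, 238 and 13.5 CPM in Control1, Control3, Control4 and Control6. The means were 1672 ± 1463 CPM in repeatedly amputated limbs and 77.0 ± 109 CPM in control limbs (SD, n = 4 each), a mean log2 difference of 4.84. The groups overlapped, because Control4 stood 2.07 times above MR6. The repeatedly amputated libraries themselves spanned 28.4-fold between MR5 and MR6, more than the 21.7-fold difference between the group means. Without Control4 and MR6, a setting chosen after the values were seen, the mean log2 difference was 6.81. Leaving out the highest control and the lowest repeatedly amputated library can only raise the difference, so nothing is read from the rise. In bulk tissue, more muscle cells and more myosin RNA per cell cannot be told apart.

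Light chain transcripts, summed over the 4 contigs, showed the same order of libraries at the extremes. They took up 799, 87.4, 1155 and 59.6 CPM in MR14, MR2, MR5 and MR6, against 5.64, 27.7, 117 and 6.26 CPM in Control1, Control3, Control4 and Control6. The means were 525 ± 542 CPM in repeatedly amputated limbs and 39.1 ± 52.9 CPM in control limbs (SD, n = 4 each), a mean log2 difference of 3.84. It was 5.44 without Control4 and MR6, a setting that can only raise the difference here too. For the light chains Control4 exceeded both MR6 and MR2, whereas for the summed heavy chains it exceeded MR6 alone.

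Of the 32 members, 15 had enough counts to be tested (11 heavy chain and 4 light chain contigs, and neither kinase contig). Their log2 fold changes between repeatedly amputated and control limbs ran from 3.55 to 4.64, with a median of 4.40, against a median of -0.0065 over all 32757 tested contigs. Their standard errors ran from 0.99 to 1.54. In edgeR's quasi-likelihood test 0 of the 15 passed an FDR of 0.05, beside 0.00611% of all tested contigs called higher and 0.0122% called in either direction. With an unadjusted p under 0.05, 15 of the 15 were higher, beside 6.47% of all tested contigs. That number was 13 of 15 without MR14, beside 2230 of all 34346 contigs tested there, and 8 of 15 without MR5, beside 1409 of 34397. Under limma-voom with quality weights it was 6 of 15, beside 2029 of 32757. The same fragments chose the members, so nothing is read from these counts. The number called depended on the test, with 2 of 15 under edgeR's exact test, where 0.885% of tested contigs were called higher, and 8 of 15 under DESeq2's Wald test, where 1.73% were.

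The groups overlapped at all 15 tested members, where 2.71% of all tested contigs were higher without overlap. Control4 stood above MR6 at 13 of them, while MR6 stood above Control1, Control3 and Control6 at every one of the 15 heavy and light chain contigs tested. Groups without overlap were found among members too low to test. By CPM they were MYH6_RAT, 4 other MYH6 pieces, MYH7_BOVIN, MYH7B_MOUSE (TR5549 c29_g1_i1) and MYLK2_RABIT, 8 of the 32 members, beside 2.23% of all contigs with a count. By FPKM they were also 8, but MYH7_BOVIN overlapped, at 0.321 FPKM in MR6 against 0.332 FPKM in Control1 from 1 count each, and MYH7B_HUMAN (TR5549 c24_g1_i1) did not, at 0.3 FPKM in MR6 against 0.294 FPKM in Control4, again from 1 count each. MYH7B_MOUSE (TR5549 c29_g1_i1) had 2 counts in MR2 against 2 counts in Control4, so its separation rests on the library scaling as well. At the 4 other MYH6 pieces without overlap, MR6 had only 1 to 3 counts, against 0 or 1 over all control limbs. At MYLK2_RABIT the separation rests on 7 counts in MR2 against 6 in Control3. The members were listed on the same comparison, so nothing is read from the number without overlap.

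The fast heavy chains are those of rapidly shortening fibres, and MYH4_PIG (TR5549 c6_g1_i1), named for the fast IIb chain of the pig, was the most abundant heavy chain contig by FPKM in all 8 libraries. It stood at 329.9, 119.5, 379 and 14.7 FPKM in MR14, MR2, MR5 and MR6, against 0.932, 6.23, 29.8 and 1.59 FPKM in Control1, Control3, Control4 and Control6. MR14, MR2 and MR5 lay above every control limb, while MR6 lay below Control4. Means were 211 ± 172 FPKM in repeatedly amputated limbs and 9.65 ± 13.7 FPKM in control limbs (SD, n = 4 each), with a log2 fold change of 4.49 (SE 1.45). This contig alone held 77.3 ± 9.17% of the listed heavy chain counts in repeatedly amputated limbs and 72.8 ± 3.06% in control limbs (SD, n = 4 each). Counts rise with contig length. By FPKM the share of this contig was 34.7 ± 11.4% in repeatedly amputated limbs and 27.4 ± 6.37% in control limbs (SD, n = 4 each). In Control1 and Control6 its lead was narrow, at 0.932 FPKM against 0.911 for MYH7_PAPHA and 1.59 FPKM against 1.52 for MYH8_RAT.

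The other fast contigs that could be tested were MYH2_BOVIN, named for the fast IIa chain, with a log2 fold change of 4.22, and MYH4_HUMAN with 4.47. Neither stood apart from MYH4_PIG by more than its standard error, which was 1.48 and 1.49. MYSS_RABIT (TR5549 c16_g1_i1), the skeletal chain with no stated type, stood at 82.3, 12.1, 162 and 3.73 FPKM in MR14, MR2, MR5 and MR6. In Control1, Control3, Control4 and Control6 it stood at 0.107, 2.14, 9.55 and 1.05 FPKM. Its log2 fold change was 4.40 (SE 1.53), and again Control4 lay above MR6 alone.

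**Figure D2:**
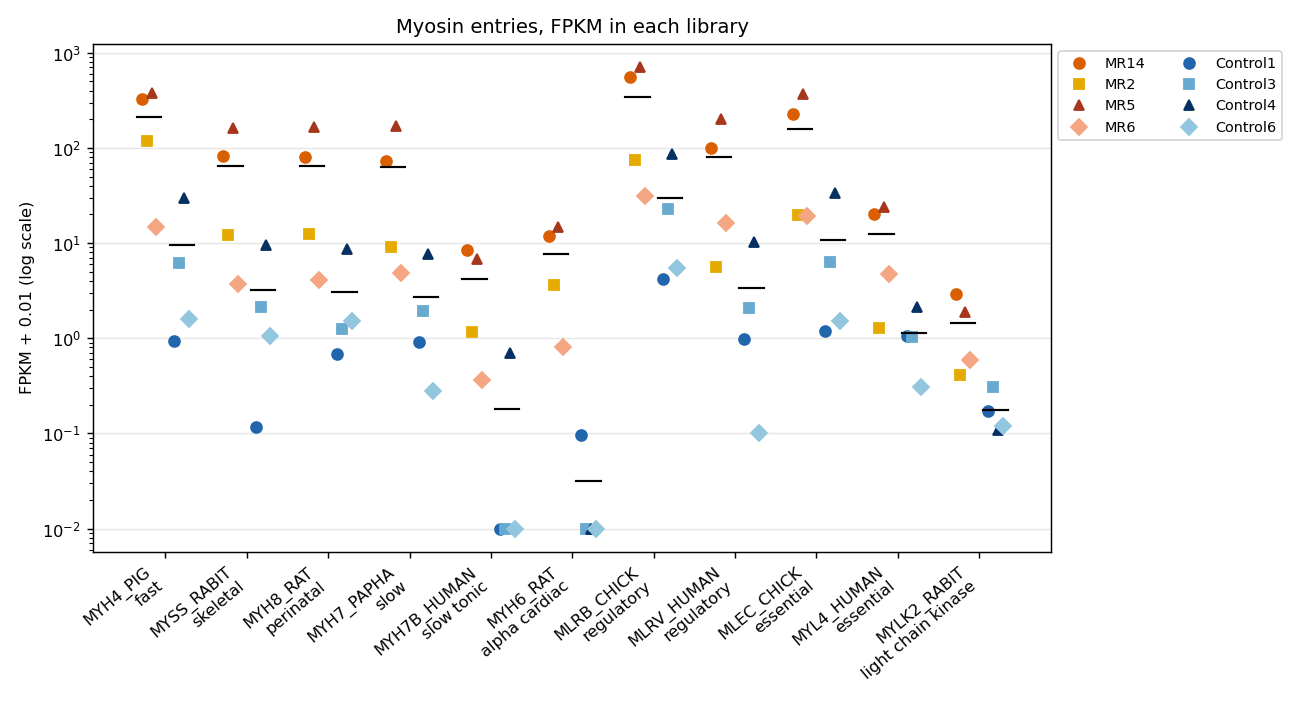
FPKM plus 0.01 on a log axis for the most abundant member of each heavy chain type, the 4 light chains and a kinase contig, with 1 point per library, repeatedly amputated libraries left of control libraries for each entry and black lines at the group means. MR5 and MR14 sit at the top of every entry, and Control4 lies above MR6 for MYH4_PIG (29.8 against 14.7 FPKM) but below it for MYL4_HUMAN (2.14 against 4.68 FPKM).

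Embryonic and perinatal heavy chains, which developing and regenerating muscle of mammals expresses before the adult forms, were present in every library. MYH8_RAT (TR5549 c13_g1_i1) stood at 79.6, 12.3, 165 and 4.11 FPKM in MR14, MR2, MR5 and MR6, against 0.675, 1.24, 8.66 and 1.52 FPKM in Control1, Control3, Control4 and Control6. Its log2 fold change was 4.50 (SE 1.37), and Control4 lay above MR6. MYH3_MOUSE, the embryonic chain, had a log2 fold change of 4.40 (SE 1.44), so these developmental names lay within 0.1 of the fast MYH4_PIG on the log2 scale.

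Slow heavy chains serve fatigue-resistant fibres. MYH7_PAPHA (TR5549 c17_g1_i1) stood at 72.3, 9.15, 168 and 4.86 FPKM in MR14, MR2, MR5 and MR6. In Control1, Control3, Control4 and Control6 it stood at 0.911, 1.91, 7.75 and 0.27 FPKM. Its log2 fold change was 4.63 (SE 1.43), the highest of the heavy chains, and the other 3 tested slow contigs lay between 4.21 and 4.51. MYH7_BOVIN had 27, 16, 24 and 1 counts across MR14, MR2, MR5 and MR6 and 1 count over all control limbs, too few to be tested. A second MYH7_PAPHA contig (TR27778 c2_g1_i1) had 11, 0, 17 and 1 counts and none in control limbs. Its mean in repeatedly amputated limbs was at least 2.61-fold higher against a floor of 3 counts per control library. MR2 and MR6 lay under that floor themselves, and the groups overlapped. Such floors cover counting error only.

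MYH7B, a slow tonic chain found in the extraocular muscles and the heart of mammals, was represented by 4 contigs that were all too low to test. MYH7B_HUMAN (TR5549 c28_g1_i1) had 22, 3, 19 and 1 counts across MR14, MR2, MR5 and MR6, against 0, 0, 2 and 0 counts across Control1, Control3, Control4 and Control6. That is 24.1 times the control level per library size, with a 95% interval from counting alone of 6.30 to 205. Summed FPKM of the 4 contigs was 25.8, 2.40, 28.6 and 1.45 in MR14, MR2, MR5 and MR6, against 0.054, 0, 1.75 and 0.18 in Control1, Control3, Control4 and Control6, with Control4 above MR6.

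The alpha cardiac name MYH6, the chain of the atrium in mammals, was given to 8 contigs that did not behave alike. MYH6_MOUSE (TR5549 c8_g1_i1), the longest at 1849 estimated bases and the only contig of the 8 tested, had 241, 11, 335 and 18 counts across MR14, MR2, MR5 and MR6, against 2, 5, 26 and 1 counts across Control1, Control3, Control4 and Control6. Its log2 fold change was 4.31 (SE 1.41). The other 7 had at most 1 count over all control limbs. MYH6_RAT (TR5549 c27_g1_i1), the most abundant, stood at 11.8, 3.64, 14.7 and 0.807 FPKM in MR14, MR2, MR5 and MR6, while Control1 had 0.086 FPKM from a single count and Control3, Control4 and Control6 were at 0. For the 4 MYH6 pieces with no count in any control limb, the lower bound of the fold, taken on the mean of repeatedly amputated limbs, ran from 3.14 to 10.7. MR6 did not exceed the floor at any of them.

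A profile over libraries, described after the values were seen, differed among the heavy chain pieces, in part along their names. Together with MYH7_BOVIN, the 7 low MYH6 contigs held 308, 138, 436 and 18 counts across MR14, MR2, MR5 and MR6, against 3, 0, 1 and 0 counts across Control1, Control3, Control4 and Control6. These pieces were grouped by alpha cardiac or slow name, by component TR5549 and by being too low to test. Their low control counts are therefore no finding. Their FPKM in MR2 was 24.7% to 71.8% of that in MR5. For the 9 tested heavy chains other than MYH4_PIG and MYH6_MOUSE it was 5.43% to 9.55%, for MYH4_PIG 31.6% and for the tested MYH6_MOUSE contig 3.51%. Other pieces too low to test did not share the high MR2 level. For the 4 MYH7B contigs it was 4.26% to 17.0%, and for both members of component TR27778 MR2 was at 0. The contigs with a high MR2 level were thus MYH4_PIG, the MYSS_CYPCA contig of component TR29760 (36.1%) and the grouped low pieces of TR5549. Most tested contigs of fast, perinatal and slow name shared a low one. Whether shared fragments that RSEM divides among these contigs account for part of this was not tested.

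**Figure D3:**
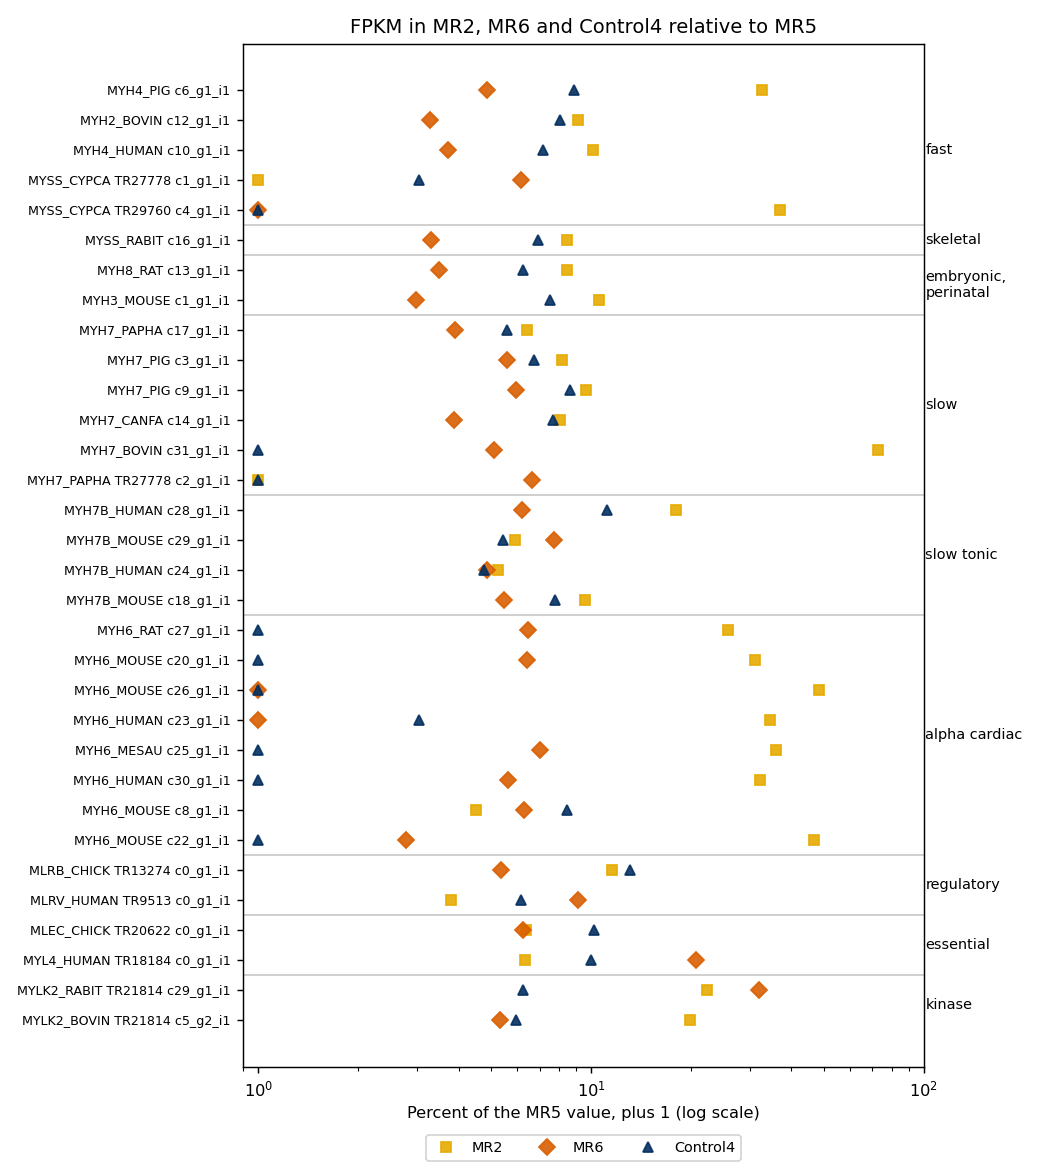
FPKM in MR2, MR6 and Control4 as a percent of the FPKM in MR5, plus 1, on a log axis, for each of the 32 members grouped by type. MR2 reaches 24.7% to 71.8% of MR5 at the low MYH6 and MYH7_BOVIN pieces and 31.6% at MYH4_PIG, against 5.43% to 9.55% at 9 other tested heavy chains. At the MYH7B contigs, also too low to test, it reaches 4.26% to 17.0%.

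Light chains came from separate components and could be set beside each other by FPKM, which is per length. In 6 of the 8 libraries the order was MLRB_CHICK, MLEC_CHICK, MLRV_HUMAN and MYL4_HUMAN from high to low, and in Control1 and Control6 MYL4_HUMAN stood above MLRV_HUMAN. MLRB_CHICK (TR13274 c0_g1_i1), a regulatory light chain, was the highest in all 8 libraries. It stood at 559.9, 74.7, 707 and 30.9 FPKM in MR14, MR2, MR5 and MR6, against 4.17, 22.8, 85.3 and 5.45 FPKM in Control1, Control3, Control4 and Control6. Control4 lay above MR2 and MR6 here, and the log2 fold change was 3.60 (SE 1.37).

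MLEC_CHICK (TR20622 c0_g1_i1), an essential light chain, stood at 226, 19.8, 369 and 19.3 FPKM in MR14, MR2, MR5 and MR6. In Control1, Control3, Control4 and Control6 it stood at 1.19, 6.32, 34.0 and 1.51 FPKM. MR2 and MR6 were nearly equal and both below Control4, and the log2 fold change was 3.94 (SE 1.5). MLRV_HUMAN (TR9513 c0_g1_i1), the regulatory light chain MYL2 of ventricle and slow fibres, stood at 99.3, 5.58, 199 and 16.2 FPKM in MR14, MR2, MR5 and MR6, against 0.965, 2.09, 10.3 and 0.09 FPKM in Control1, Control3, Control4 and Control6. With a log2 fold change of 4.64 (SE 1.51) it was the highest of the 15 tested members, and MR2, not MR6, was the repeatedly amputated library below Control4.

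MYL4_HUMAN (TR18184 c0_g1_i1), the essential light chain of atrium and embryonic muscle, was the lowest of the 4. It stood at 20.1, 1.26, 23.7 and 4.68 FPKM in MR14, MR2, MR5 and MR6, against 1.04, 1.02, 2.14 and 0.3 FPKM in Control1, Control3, Control4 and Control6. Its log2 fold change of 3.55 was the lowest of the 15 and had the smallest standard error, 0.99. MR6 reached 19.7% of the MR5 level here and 8.11% at MLRV_HUMAN, against 1.97% to 5.27% at the 10 tested heavy chains other than MYH4_PIG. MYL4_HUMAN and MLRV_HUMAN thus had MR6 above Control4, whereas MLRB_CHICK, MLEC_CHICK and all 11 tested heavy chains had Control4 above MR6.

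MYLK2_RABIT (TR21814 c29_g1_i1), a kinase contig, had 50, 7, 35 and 11 counts across MR14, MR2, MR5 and MR6, against 3, 6, 2 and 2 counts across Control1, Control3, Control4 and Control6. Here Control4 was not raised above the other controls. MYLK2_BOVIN had 36.4, 7, 39.5 and 1.69 expected counts across MR14, MR2, MR5 and MR6, against 3.32, 1.6, 2 and 0 across Control1, Control3, Control4 and Control6. Both contigs were too low to test, and their sum was 2.88 ± 2.45 CPM in repeatedly amputated limbs and 0.276 ± 0.130 CPM in control limbs (SD, n = 4 each), without overlap.

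The mix of heavy chain types was compared as percent of summed heavy chain FPKM within each library. Because a gene assembled in many pieces enters such a sum many times, the shares describe contigs and not genes. Contigs of fast name held 46.2%, 58.1%, 37.8% and 39.6% in MR14, MR2, MR5 and MR6, against 26.9%, 46.2%, 46.2% and 41.1% in Control1, Control3, Control4 and Control6. The means were 45.4 ± 9.21% in repeatedly amputated limbs and 40.1 ± 9.14% in control limbs (SD, n = 4 each), a difference smaller than the spread within either group.

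Contigs of slow name held 23.9 ± 7.49% of the summed FPKM in repeatedly amputated limbs and 25.5 ± 11.3% in control limbs (SD, n = 4 each). The sign of this difference changed when counts were used in place of FPKM, at 11 ± 5.41% in repeatedly amputated limbs and 10.8 ± 3.11% in control limbs (SD, n = 4 each). It also changed without MR2, Control1 or Control3, to values between 0.332 and 1.64 percentage points higher in repeatedly amputated limbs. Embryonic and perinatal names held 12.5 ± 3.14% in repeatedly amputated limbs and 19.6 ± 9.18% in control limbs (SD, n = 4 each), and the groups overlapped, with 22.3% in Control1 and 31.1% in Control6 resting on 9 and 19 counts. The alpha cardiac share was 6.94%, 12.7%, 6.22% and 6.98% in MR14, MR2, MR5 and MR6, against 11.9%, 0.801%, 1.11% and 0.432% in Control1, Control3, Control4 and Control6. Control1 is the exception among the controls there, with 4 counts in all. The low shares of Control3 and Control6 rested on few counts too, 5 and 1, all of the tested MYH6_MOUSE contig. By counts the alpha cardiac share was 1.36 ± 0.262% in repeatedly amputated limbs and 1.18 ± 1.27% in control limbs (SD, n = 4 each), and the groups overlapped.

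Light against heavy chain was compared by the ratio of summed FPKM. It was 0.95, 0.430, 0.836 and 1.42 in MR14, MR2, MR5 and MR6, against 1.66, 1.76, 1.40 and 1.06 in Control1, Control3, Control4 and Control6. Means were 0.908 ± 0.406 in repeatedly amputated limbs and 1.47 ± 0.314 in control limbs (SD, n = 4 each), and the groups overlapped through MR6 and Control6. Set against MYH4_PIG alone, which avoids counting pieces, the ratio was 2.75, 0.848, 3.43 and 4.85 in MR14, MR2, MR5 and MR6, against 7.90, 5.18, 4.42 and 4.63 in Control1, Control3, Control4 and Control6. MR2 was the lowest library by both ratios, and MR6 was inside the range of the control limbs.

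**Figure D4:**
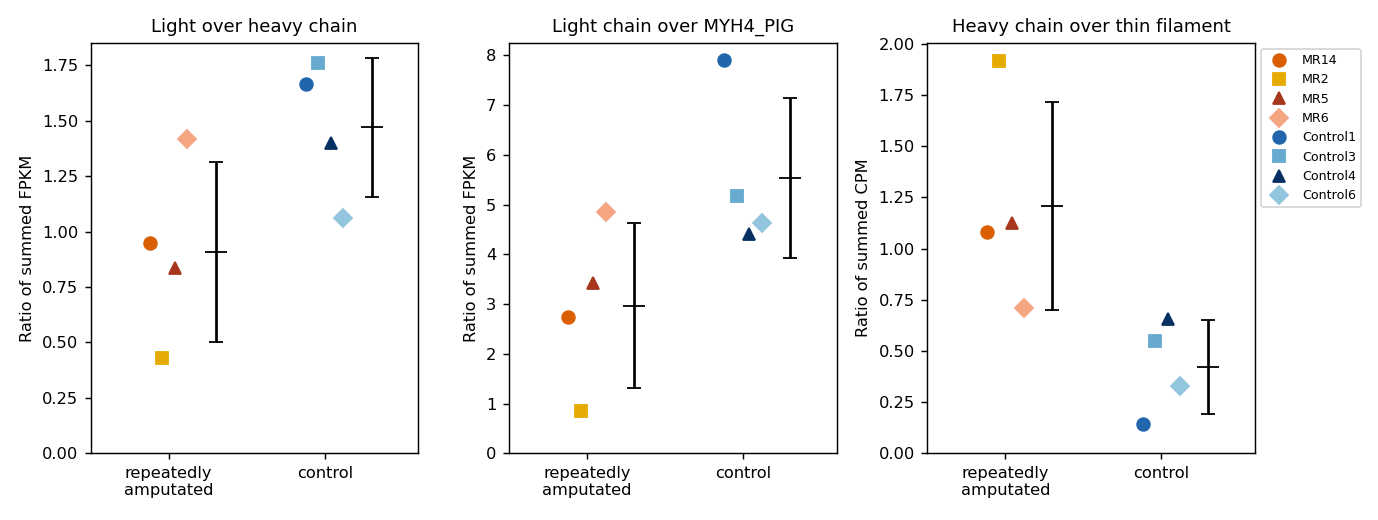
Ratios within each library of light over heavy chain FPKM (left), light chain over MYH4_PIG FPKM (middle) and heavy chain over listed thin filament CPM (right), with 1 point per library and means ± SD (n = 4 each) in black, repeatedly amputated limbs left of control limbs. Light over heavy chain overlaps between the groups, while heavy chain over thin filament lies between 0.711 and 1.92 in repeatedly amputated limbs and between 0.145 and 0.657 in control limbs. Only listed contigs enter these ratios, and listing was decided on the same comparison.

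Thin filament transcripts (troponins, tropomyosins, nebulin, leiomodins and tropomodulin, 17 listed contigs) form the track on which myosin pulls. They took up 2315, 418, 2902 and 162 CPM in MR14, MR2, MR5 and MR6, against 48.7, 89.3, 362 and 41.2 CPM in Control1, Control3, Control4 and Control6. Heavy chain over thin filament was 1.21 ± 0.507 in repeatedly amputated limbs and 0.420 ± 0.229 in control limbs (SD, n = 4 each). These values did not overlap, but the gap was narrow, between 0.711 in MR6 and 0.657 in Control4. Both sets hold only contigs listed on this comparison. Adding to the heavy chains the tested unlisted contigs of components TR5549 and TR29760, which carry no protein name here, gave sums of 409 CPM in Control4 and 131 CPM in MR6. Control4 then stood above its 362 CPM of thin filament and MR6 below its 162 CPM, so the groups overlapped. No unlisted contigs were added to the thin filament sum, so this overlap is tied to that choice. Whether all listed thin filament contigs, tropomyosins among them, come from muscle fibres was not tested. The ratio is therefore not a measure within muscle. Light chain over thin filament overlapped, at 0.330 ± 0.0836 in repeatedly amputated limbs and 0.225 ± 0.106 in control limbs (SD, n = 4 each).

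Other parts of the contractile machinery on the same list had similar median log2 fold changes. Over tested contigs the median was 4.09 for the thin filament (12 of 17 tested), 4.06 for titin, myomesin and myosin-binding proteins (8 of 22), and 4.34 for calcium release and uptake (5 of 22). It was 4.37 for UN45B and SMYD1, which assist the folding and assembly of myosin (2 of 2), and 3.57 for the single tested contig of MYOG and SIX1B, regulators of muscle genes. All of these tested contigs were higher, with an unadjusted p under 0.05, and 0 passed an FDR of 0.05 by edgeR. Over all tested contigs, 6.47% were higher at that p and 0.00611% were called higher at that FDR. These muscle contigs too were listed on this comparison, so nothing is read from their counts. Listed heavy chain names outside the rule (MYSC, MY18B and MYO5B, 6 contigs) had 1 tested contig, with a log2 fold change of 4.66. By mean FPKM 5 of the 6 were higher in repeatedly amputated limbs and 1 was lower, MYO5B_HUMAN, a myosin that carries cargo in cells and is not part of the sarcomere. It was at 0 in all repeatedly amputated limbs, against 2.97, 0, 1.22 and 3.60 FPKM in Control1, Control3, Control4 and Control6.

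By the SD over the 8 libraries of the log2 ratio to summed myosin CPM, contigs among the 5 most like the myosins, out of 458 listed non-myosin contigs, were PDLI7_BOVIN (0.25), LMOD3_HUMAN (0.28), NEBU_HUMAN (0.36) and DESM_XENLA (0.39). PDLI7 is a PDZ and LIM domain protein, LMOD3 promotes the assembly of thin filaments, nebulin runs along the thin filament and desmin is the intermediate filament of muscle. PDLI7_BOVIN stood at 60.8, 11.9, 70.5 and 2.34 FPKM in MR14, MR2, MR5 and MR6, against 0.182, 1.23, 6.94 and 0.25 FPKM in Control1, Control3, Control4 and Control6, the same order of libraries as MYH4_PIG. All points share the libraries and their depth, so the likeness is a description over 8 libraries.

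Markers of other tissues were taken from the same list, so that they differ between the groups follows from the selection and is no finding. Listed cartilage contigs (10, of which 2 had no count in any control limb) took up 10.9 to 173 CPM in repeatedly amputated limbs and 1.37 to 2.33 CPM in control limbs, without overlap. Listed epidermal contigs (4, of which 1 had no count in any repeatedly amputated limb) took up 163 to 473 CPM in repeatedly amputated limbs and 921 to 4015 CPM in control limbs, and of the 3 tested contigs 2 were lower and 1 was higher. For B cells (7 contigs, none at 0 in either group) the range was 148 to 272 CPM in repeatedly amputated limbs and 544 to 921 CPM in control limbs. The cartilage sum was highest in MR5, as the myosins were, but Control4, the control limb highest in myosin, stood at 1.88 CPM of cartilage, inside the range of the other controls. The part of tissue composition in the myosin values was not tested.

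Contigs of the same assembly components that the study did not list were not picked by the rule, but being left off the list was decided on the same comparison. They carry no protein name here. In component TR5549 all 6 unlisted contigs could be tested, and all were higher in repeatedly amputated limbs, with a median log2 fold change of 3.91. In edgeR's quasi-likelihood test none of the 6 was called (FDR 0.382 to 0.592, unadjusted p under 0.05 for 4), and no test tried called any of these 6. Over all tested contigs, 6.47% were higher with an unadjusted p under 0.05. The summed CPM of the 6 was 133, 27.3, 237 and 3.56 in MR14, MR2, MR5 and MR6, against 0.163, 2.34, 35.0 and 0.835 in Control1, Control3, Control4 and Control6. Control4 lay 9.84 times above MR6 for these contigs, against 2.07 times for the listed heavy chains. A contig with Control4 far above MR6 is less likely to be listed, so this contrast is tied to the selection too. RSEM also divides shared fragments between listed and unlisted contigs.

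A further case was the assembled gene TR29760 c4_g1, which has 5 isoforms of which the study listed 1, MYSS_CYPCA (TR29760 c4_g1_i1). The listed isoform had 83.1, 13.6, 39.8 and 0 expected counts across MR14, MR2, MR5 and MR6, against 0, 2.59, 0 and 0 across Control1, Control3, Control4 and Control6. It held 0.602% of the counts of its gene, while the unlisted isoform TR29760 c4_g1_i2 held 75.1%. Summed over the 5 isoforms the gene had 407, 114, 742 and 4.06 CPM in MR14, MR2, MR5 and MR6, against 2.22, 7.19, 119.8 and 0.835 CPM in Control1, Control3, Control4 and Control6. Control4 thus stood 29.5 times above MR6 for the gene, although it had no count of the listed isoform.

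The log2 fold change of the summed gene was 3.33 (SE 1.85). The 4 unlisted isoforms had log2 fold changes between 3.20 and 3.98, and none was called in edgeR's quasi-likelihood test (FDR 0.414 to 0.591, unadjusted p under 0.05 for 2). Of all 12 tested unlisted contigs of component TR29760, 9 were higher and 3 lower. An unadjusted p under 0.05 was found for 6, all higher, beside 6.47% of all tested contigs. The 3 lower ones had log2 fold changes between -0.39 and -0.08 and similar levels in every library, unlike the other 9. DESeq2's Wald test called TR29760 c3_g1_i1 alone among these 12.

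**Figure D5:**
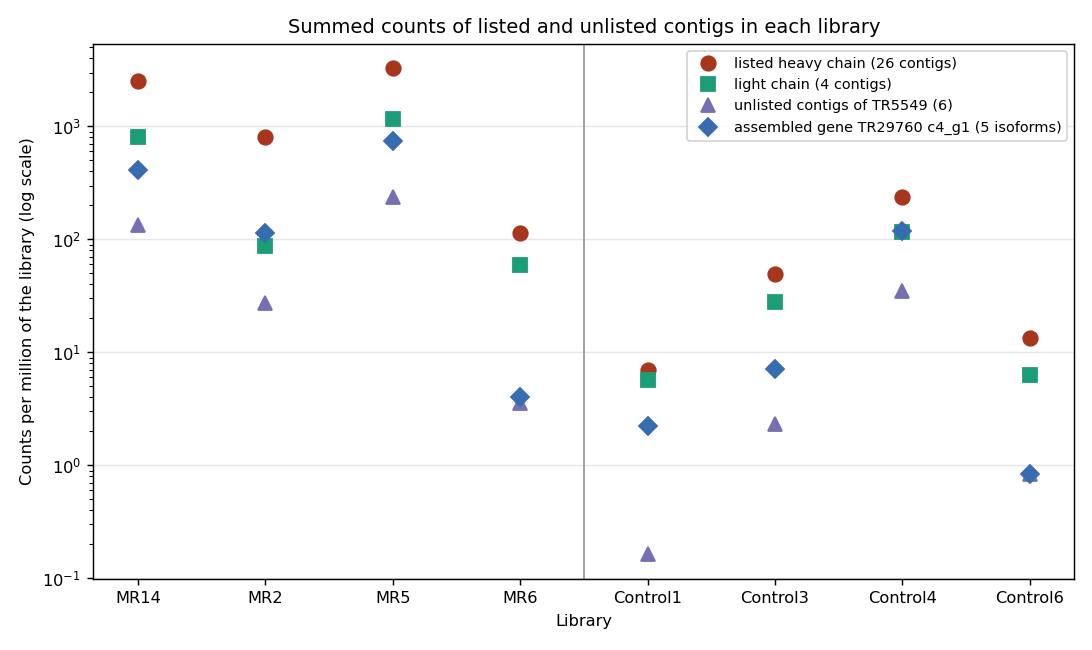
CPM of each library on a log axis for the 26 listed heavy chain contigs, the 4 light chain contigs, the 6 unlisted contigs of component TR5549 and the assembled gene TR29760 c4_g1, repeatedly amputated libraries left of the line and control libraries right of it. All 4 sums are highest in MR5 and next highest in MR14, and Control4 exceeds MR6 by 2.07 times for the listed heavy chains and 29.5 times for the gene TR29760 c4_g1. Listing was decided on the same comparison, so the listed and unlisted ratios are tied to the selection.

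Component TR21814, which held both kinase contigs, had 42 unlisted contigs, 29 of them tested, with a median log2 fold change of 0.08. None was called in edgeR's quasi-likelihood test, and 4 had an unadjusted p under 0.05, all higher. Over all tested contigs, 6.47% were higher at that p and 11.1% differed in either direction. The exact test of edgeR and the Wald test of DESeq2 each called TR21814 c11_g1_i2 (log2 fold change 1.01, SE 0.20). The 2 unlisted contigs of TR27778 were too low to test. In the listed contigs of TR27778, MYSS_CYPCA had 24, 0, 94 and 5 counts across MR14, MR2, MR5 and MR6, against 0, 0, 2 and 0 counts across Control1, Control3, Control4 and Control6, and MR2 was thus at 0 for both members of this component.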

How the data were processed

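RNA of 8 limb stumps (4 per group) was sequenced as paired-end reads. Base calls came from CASAVA 1.8.2, per the labels. The authors assembled the reads with Trinity, named contigs with Trinotate and estimated fragments with RSEM. They deposited RSEM's expected counts, without normalization, and FPKM values scaled between libraries by TMM. The methods name an FPKM threshold of 2 on the assembly, but the tables also hold contigs under it, 924 of them at 0 in every library. No genome was used, so no genome positions are given. The 8 columns were assigned to groups only, by name. The study's list holds names, group means and fold changes. Names and means served to match contigs (892 of 912 entries matched 1 contig). The members, their types, the sets of other muscle and tissue contigs and the contigs compared for likeness were drawn from this list. Its selection therefore bears on the results, while the levels and fold changes given were computed from the deposited counts and FPKM.

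Expected counts were rounded (91.5% were whole), filtered by filterByExpr of edgeR 4.0.16 with the group design (32757 contigs), scaled by TMM and compared with its quasi-likelihood F-test (robust fit, adjustment by Benjamini and Hochberg). Standard errors come from the F statistic. CPM sums use unscaled library totals, and effective lengths come from counts, FPKM and library totals. Summed counts per library were 15596527 to 18437103. The named-member rule took the most abundant member of each type and every light chain, with likeness as the SD of log2 ratios at a prior count of 2. One gene that this rule and the muscle lists took in is not reported here. Members, lists and types were chosen with earlier results of these data known. Alternatives were edgeR's exact test, DESeq2 1.42.0, limma 3.58.1 (voom with quality weights, and log2 of FPKM plus 1 or 0.1), 3 other scalings, 2 other filters and each library left out. The count tests were tested on simulated data.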

Additional observations from a re-analysis of the deposited data

Results flagged for a closer look

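Among 34 groups of 4 libraries checked for a value far from the others (11 members, the heavy and light chain sums, 3 type shares and the light to heavy ratio), 4 had such a library. In 3 of them the library was Control4. MYH8_RAT (TR5549 c13_g1_i1) stood at 8.66 FPKM in Control4, with the other controls at 0.675 to 1.52 FPKM. MLEC_CHICK (TR20622 c0_g1_i1) stood at 34.0 FPKM in Control4, with the other controls at 1.19 to 6.32 FPKM. MYH7B_HUMAN (TR5549 c28_g1_i1) stood at 0.686 FPKM in Control4, from 2 counts, with the other controls at 0. The last was MYH6_RAT (TR5549 c27_g1_i1), at 0.086 FPKM in Control1 from 1 count, with the other controls at 0. The values of MYH7B_HUMAN and MYH6_RAT lie at or under the 3 counts used as a floor. With the other controls at 0, any count there is flagged. The members share fragments and enter the sums, so the number flagged is not set against a rate by chance.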

How the results depend on the processing

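No paired analysis was possible because the columns of the 2 groups share only the number 6 and no label ties columns to animals. Over all contigs the quasi-likelihood test called 4, edgeR's exact test 387, DESeq2's Wald test 759, limma with 1 added to FPKM 11, limma with 0.1 added 9, no filter 21 and at least 10 summed counts 9. With each library left out the calls ran from 2 (without MR5) to 14 (without Control1). Of the members, 0 were called in every setting except the exact test (2) and DESeq2 (8), and of the unlisted contigs 0 except the exact test (1) and DESeq2 (2). At an unadjusted p under 0.05 the tested members higher were 6 of 15 under limma-voom with quality weights, 8 of 15 without MR5 and 13 of 15 without MR14. Over all contigs these numbers were 2029 of 32757, 1409 of 34397 and 2230 of 34346. With a control library left out the members higher ran from 18 of 24 without Control3 to 24 of 24 without Control4. Over all contigs 2039 of 34092 were higher without Control3 and 2143 of 34239 without Control4. Members beyond the 15 of the main fit passed the filter there through counts in repeatedly amputated libraries, so nothing is read from them. The slow share, lower by 1.65 percentage points in repeatedly amputated limbs, was higher by 0.256 with counts, and ran from -6.93 to 1.64 with a library left out, with a positive sign without MR2 (1.56), Control1 (1.64) or Control3 (0.332). The heavy chain difference ran from 4.11 to 5.85 and the light chain difference from 3.13 to 4.73 with a library left out. Over listed contigs only, the log2 ratio of light to heavy chain ran from -1.05 to -0.47. The fast share difference ran from 0.910 to 7.87 and the embryonic and perinatal one from -10.4 to -3.29. Of 136 alternative log2 fold changes of 8 named members none changed sign, and they ran from 2.16 to 6.38. These members were listed as higher in the same libraries, so the constant sign is tied to the selection and is no finding. The causes of these changes were not tested. Depth limits the 14 members with 3 counts or fewer over all control limbs, and their control levels lie near the floor.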
